A study of Arabidopsis thaliana with 20 samples.

Results

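The genes described here encode the histones H1, H2A, H2B and H3 of *Arabidopsis thaliana*. They were taken by a list of gene identifiers, and they are 35 of the 27415 genes in the count table: 3 genes for H1, 13 for H2A and its variants, 11 for H2B, 5 for H3.1 and 3 for H3.3. The genes for histone H4 were left out of the list and are used only for comparison (8 genes). Small RNAs were sequenced from closed flower buds, pooled from several plants per sample, of 7 genotypes in the Col-0 accession, and the study asked which mRNAs give rise to small RNAs when cytosolic mRNA degradation is impaired. There were 3 libraries of the wild type, 3 of *cer7-3* and 2 of *cer7-4*, 3 each of *rst1-2* and *rst1-3*, and 3 each of *ripr(insT)* and *ripr(insC)*, so that 20 libraries hold 3 of the wild type, 5 of *cer7*, 6 of *rst1* and 6 of *ripr*. *cer7-3* and *cer7-4* are insertion lines in the gene of RRP45B/CER7, a core subunit of the RNA exosome. *rst1-2* and *rst1-3* are T-DNA insertions in *RST1*. The *ripr* lines were made with CRISPR-Cas9 and each carries 1 additional base, a T or a C, which brings in an early stop codon. No group received a treatment. The labelled tissue could not be checked against marker genes, because the counts are of small RNAs and not of mRNAs.

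The RNA exosome degrades RNA from its 3′ end, and in the cytosol it works with the Ski complex. When mRNA is not degraded, plants can copy it into double-stranded RNA and cut that into small interfering RNAs of 21 and 22 nt, termed RNA quality control siRNAs (rqc-siRNAs). The histones H2A, H2B, H3 and H4 form the core of the nucleosome and H1 binds the DNA between nucleosomes. H3.1 and the canonical H2A genes are expressed mainly when DNA is replicated, whereas H3.3 and H2A.Z are made in other phases as well. H2A.X marks DNA breaks when phosphorylated, and H2A.W is found on heterochromatin. The values below are counts of 21 and 22 nt reads on each gene, so they describe the small RNAs and not the histone mRNAs or proteins. In bulk tissue, fewer cells of a type and less RNA per cell cannot be told apart.

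The sequences show how far small RNAs of such similar genes can be assigned to 1 gene. The first 30 coding bases of the 8 H3 genes differed at 9 positions, which are in capitals in the lines that follow. They are written 5′ to 3′ on the coding strand and were read from the RefSeq assembly TAIR10.1. All lie in an exon, from the start codon on.
HTR1: atggctCgTacCaagcaAacCgcAAgGaaA
HTR2: atggctCgTacCaagcaGacGgcTAgGaaA
HTR3: atggctAgAacAaagcaAacAgcTAgAaaA
HTR9: atggctCgTacCaagcaAacAgcTCgTaaA
HTR13: atggctCgTacTaagcaAacCgcGAgGaaA
HTR4: atggctCgTacCaagcaAacCgcTCgTaaG
HTR5: atggctCgTacTaagcaAacAgcTCgTaaG
HTR8: atggctCgTacCaagcaAacCgcTAgGaaA

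The first 5 of these lines belong to H3.1 genes (*HTR1* at chr5:26120480-26120509, *HTR2* at chr1:2972103-2972132, *HTR3* at chr3:10129840-10129869, *HTR9* at chr5:3270859-3270888 and *HTR13* at chr5:3269446-3269475). The other 3 belong to H3.3 genes (*HTR4* at chr4:18556388-18556417, *HTR5* at chr4:18558207-18558236 and *HTR8* at chr5:3473320-3473349). All 8 genes lie on the minus strand. In *HTR2*, *HTR3*, *HTR9*, *HTR13* and *HTR5*, each of the 10 windows of 21 bases in this stretch occurred once in the genome. In *HTR1*, 7 of the 10 did, and in *HTR4* and *HTR8*, 6 of the 10 did.

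Over whole exons, the share of 21-base windows that occurred once in TAIR10.1 was at least 87% in 32 of the 35 genes, with a median of 95.2% over the 35. The exceptions were *HTA4* (71.7%), *HTB9* (75.2%) and *HTB11* (76.2%). *HTB9* and *HTB11* share an identical stretch of 62 bases, *HTA10* and *HTA13* one of 61 bases, and *HTR3* and *HTR9* one of 59 bases, and their counts are less certain for that reason. No window of 21 bases was shared between any of the 35 genes and any of the 8 H4 genes. The median share of unique windows in the H4 genes was 72.9%.

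The letters CGCGGATC are known as the histone octamer, a motif of plant histone promoters. They were searched on both strands in the 300 bases before the annotated start of each gene. They were found in 8 of the 35 genes (22.9%), in 2 of the 8 H4 genes and in 41 of 27443 protein-coding genes (0.149%). The 8 genes were *H1.1*, *HTA10*, *HTA13*, *HTA6*, *HTR1*, *HTR2*, *HTR9* and *HTR5*. The windows of 5 of them follow, with the octamer or its reverse complement in capitals, to show that the motif stood before genes with small RNAs that rose in *cer7* and also before *HTR5*, whose log2 fold change in *cer7* was 0.01.
H1.1: aaaagagtagcGATCCGCGtagtcattgtt
HTA6: atacatagtcaCGCGGATCgtgctttattt
HTR1: tttagacgtgaCGCGGATCactaaaattaa
HTR9: ttaacacaggaCGCGGATCgtaaagataca
HTR5: tttatttcagcGATCCGCGacggtttgt

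In these, the octamer stood 28 bases before the start of *H1.1* (chr1:2077777-2077806), 116 before *HTA6* (chr5:24116318-24116347), 126 before *HTR1* (chr5:26120689-26120718), 120 before *HTR9* (chr5:3271059-3271088) and 17 before *HTR5* (chr4:18558946-18558973). No octamer was found in these windows of the 11 H2B genes, of the H2A.X and H2A.Z genes, or of *HTR3* and *HTR13*. The match is of letters only, and the binding of any factor was not measured.

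Small RNAs on these histone genes were few in the wild type and more abundant in all 3 mutants. The counts of the 35 genes together made up 0.0502%, 0.0446% and 0.0501% of the table's counts in the 3 wild-type libraries, with exact 95% binomial intervals from 0.0364% to 0.0609%. In *cer7-3* they made up 0.110%, 0.123% and 0.0966%, and in *cer7-4* 0.136% and 0.136%. None of the 5 *cer7* libraries, whose intervals ran from 0.0882% to 0.150%, overlapped with the wild type. In *rst1* the lowest, median and highest shares were 0.0607%, 0.0751% and 0.102%, and in *ripr* 0.0680%, 0.0813% and 0.0918%. These intervals cover counting error only. The table's totals ran from 192747 to 522464 counts per library and were largest in *cer7* (median 442257, against 227446 in the wild type), so that a value in the wild type rests on fewer reads. In counts, the wild-type libraries held 102 to 114 reads of the 35 genes and the *cer7* libraries 415 to 644.

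The levels were scaled to CPM, the usual unit of counts relative to library size, taken here relative to the library's counts on the genes tested times its TMM factor. The summed level of the 35 genes was 505 ± 14.1 CPM (SD, n = 3) in the wild type, 1567 ± 185 CPM (n = 5) in *cer7*, 846 ± 162 CPM (n = 6) in *rst1* and 855 ± 91.3 CPM (n = 6) in *ripr*. The ratio to the mean of the wild type was 3.1 in *cer7*, 1.68 in *rst1* and 1.69 in *ripr*. Every mutant library was above every wild-type library in this sum. The ratio in *cer7* was 5.88 for H3.1, 5.73 for H2A.W, 4.68 for H1, 4.15 for H2A.X, 3.74 for canonical H2A and 3.16 for H2B, and the *cer7* and wild-type libraries did not overlap in any of these 6 classes. It was 1.5 for H3.3 and 0.928 for H2A.Z, and here the libraries overlapped.

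**Figure D1:**
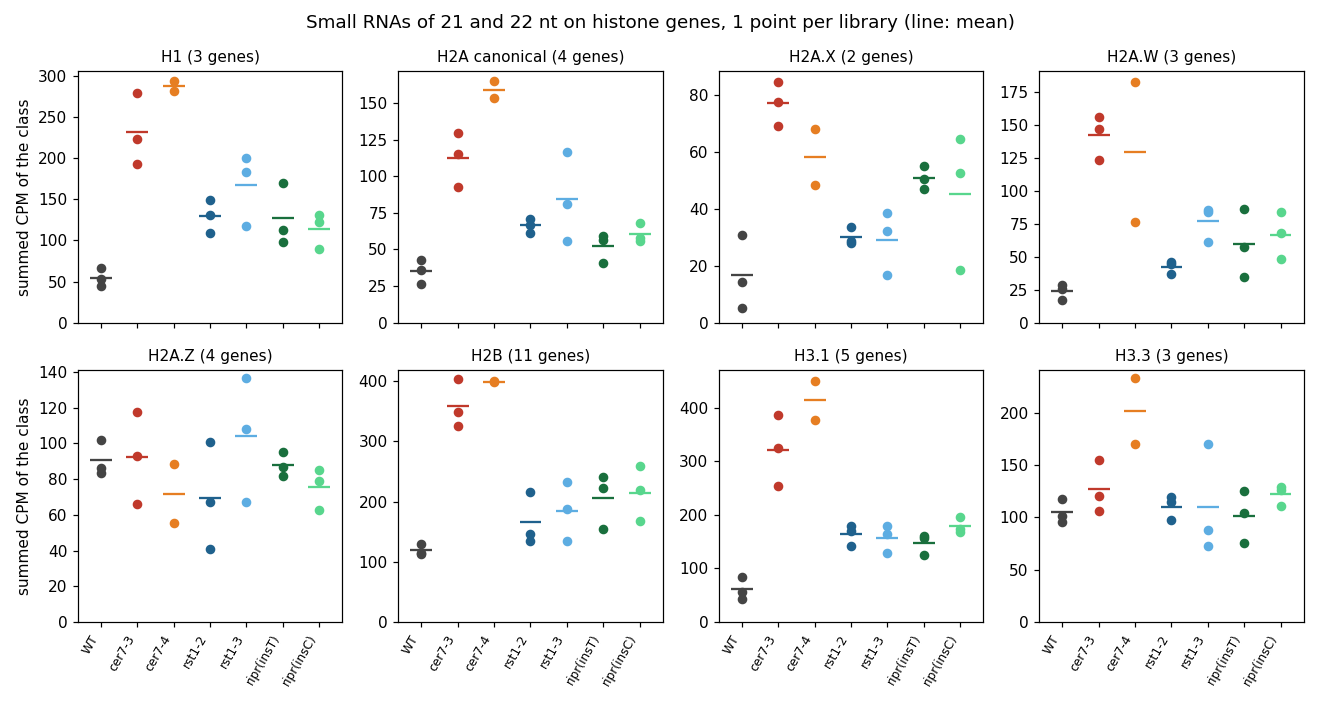
Summed small RNA level (CPM) of each histone class, 1 point per library, with the mean of each genotype as a line. In H1, canonical H2A, H2A.X, H2A.W, H2B and H3.1 all 5 *cer7* points lie above the 3 wild-type points, whereas in H2A.Z and H3.3 they overlap.

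Of the 35 genes, 19 had enough counts to be tested, 15 had fewer counts and 1, *HTB8*, had no count in any library. A gene was called when its adjusted p-value was below 0.01 and its log2 fold change was above 1 or below -1 (quasi-likelihood test of edgeR, with p-values adjusted over all 2916 genes tested by the method of Benjamini and Hochberg). In *cer7* against the wild type, 12 of the 19 were higher and 0 were lower, whereas over all genes tested 17.5% were higher and 2.3% lower. At an unadjusted p below 0.05, 17 of the 19 differed, against 45.9% of all genes. The median log2 fold change of the 19 was 2.10, and that of all genes tested was 0.07. A gene could pass the filter on low counts through its *cer7* libraries alone. The 12 called genes had 0 to 8 counts per wild-type library, which left little room to be lower in *cer7*. The 0 lower and the median of the 19 can partly reflect how genes entered the test. The counts of the 19 are also not support for the remaining 16. Without the filter 34 of the 35 were tested and 11 were higher, against 1.91% of 25497 genes. The gene lost was *HTA10*. DESeq2 called 11 as well, where 15.6% of all genes were higher, and at an adjusted p below 0.05 edgeR called 14, where 22.6% were higher.

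In the H1 class, *H1.1* had more small RNAs in each mutant, while *H1.2* was raised in *cer7*. Both are main linker histones, and the remaining gene, *H1.3*, encodes a variant induced by stress. *H1.1* (AT1G06760, chr1:2076504-2077767) had 5, 8 and 7 counts in the wild type, 37, 78 and 57 in *cer7-3*, and 40 and 50 in *cer7-4*. All *cer7* libraries stood above the wild type, at 167 ± 41.8 CPM (SD, n = 5) against 31.5 ± 6.41 CPM (n = 3). The log2 fold change was 2.38 ± 0.32 (SE), with an adjusted p of 9.92e-07 (edgeR, Benjamini-Hochberg). *H1.1* overlaps an annotated antisense RNA, AT1G04503, over 484 bp, and which strand was counted is not given in the sources used here.

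*H1.2* (AT2G30620) had 8, 3 and 3 counts in the wild type, 30, 31 and 25 in *cer7-3*, and 26 and 19 in *cer7-4*. Its level was 22.8 ± 15.6 CPM in the wild type and 83.8 ± 13.3 CPM in *cer7*, without overlap, and the log2 fold change was 1.88 ± 0.44 (edgeR, adjusted p = 0.0012). The call was lost without some of the wild-type libraries, with an adjusted p of 0.0149 without wild-type replicate 2 and of 0.021 without replicate 3. *H1.3* had 4 counts in *cer7-4* replicate 1 and 0 in the other 19 libraries.

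The H2A genes differed by variant. Among the 4 canonical genes 1 was tested, *HTA10*, and it was higher in *cer7*. *HTA10* (AT1G51060) had 1, 3 and 2 counts in the wild type, 15, 14 and 9 in *cer7-3*, and 12 and 16 in *cer7-4*. The libraries did not overlap (9.42 ± 4.65 against 44.0 ± 16.2 CPM), and the log2 fold change was 2.12 ± 0.60 (edgeR, adjusted p = 0.00639). This was the weakest of the 12 calls. It was lost in 8 of 15 other settings, among them the fit without any 1 of the 3 wild-type libraries (adjusted p 0.0128 to 0.039) or without *cer7-4* replicate 3 (0.0263). *HTA13* (AT3G20670), the canonical H2A gene with the most counts over all libraries, did not pass the filter of the main fit. It passed, and was called higher in *cer7*, in the fits without wild-type replicate 1 or without replicate 2. It had 2, 2 and 1 counts in the wild type, 13, 16 and 12 in *cer7-3*, and 15 and 9 in *cer7-4*, and the CPM of *cer7* and the wild type did not overlap. *HTA1* overlapped between the groups in CPM, whereas *HTA2*, with 4, 2 and 0 counts in the wild type and 7 to 16 in *cer7*, did not.

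The H2A.X gene *HTA5* and the H2A.W genes *HTA6* and *HTA7* were higher in *cer7*. *HTA5* (AT1G08880) had 0, 0 and 6 counts in the wild type, 24, 21 and 25 in *cer7-3*, and 8 and 14 in *cer7-4*. Its log2 fold change was 2.55 ± 0.58 (edgeR, adjusted p = 0.00102). The value turned on the wild-type libraries. It was 6.96 without wild-type replicate 3, the only one with counts, and the call was lost without replicate 1 (adjusted p = 0.0129) or replicate 2 (0.0155). *HTA6* (AT5G59870) had 3, 4 and 2 counts in the wild type, 27, 32 and 27 in *cer7-3*, and 13 and 24 in *cer7-4*. All *cer7* libraries were above all wild-type libraries (77.5 ± 17.8 against 14.4 ± 5.22 CPM), with a log2 fold change of 2.40 ± 0.46 (edgeR, adjusted p = 0.000156). *HTA7* (AT5G27670) had 2 counts in each wild-type library, 15, 29 and 24 in *cer7-3*, and 4 and 19 in *cer7-4*. It spread the most of the tested genes among the *cer7* libraries, from 16.1 to 80.8 CPM, and its log2 fold change was 2.51 ± 0.54 (edgeR, adjusted p = 0.000493). Without *cer7-3* replicate 2, *cer7-3* replicate 3 or *cer7-4* replicate 3 it did not pass the filter on low counts, and so was not called.

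*HTA4*, listed with H2A.Z, was the only tested gene of the 19 with a negative value in *cer7*. H2A.Z replaces H2A in nucleosomes around transcription starts. *HTA4* (AT4G13570, chr4:7884516-7885982) had 19, 14 and 13 counts in the wild type, 14, 24 and 16 in *cer7-3*, and 4 and 7 in *cer7-4*. The groups overlapped in CPM (73.7 ± 20.7 against 38.2 ± 16.8). The log2 fold change of -0.88 ± 0.37 did not pass the test (edgeR, adjusted p = 0.0585). With scaling to library size only it was -1.19 and passed (adjusted p = 0.00875), and that scaling moved the median log2 fold change of all genes by -0.30.

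The annotated gene of a microRNA, *MIR841a*, lies within *HTA4* on the opposite strand (212 bp). Its mature sequences are shown because they have the length counted here. They were read from TAIR10.1 and are written 5′ to 3′, with the seed, bases 2 to 8, in capitals.
ath-miR841a-3p: aTTTCTAGtgggtcgtattca
ath-miR841a-5p: tACGAGCCacttgaaactgaa

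These lie at chr4:7885296-7885316 and chr4:7885393-7885413. The first occurs at 2 places in the genome and the second at 1. Neither falls wholly within an annotated exon of *HTA4*. Whether reads of this microRNA are among the counts of *HTA4* was not tested. Of the other H2A.Z genes, *HTA11* had 0, 0 and 1 counts in the wild type and 2 to 12 in *cer7* without overlap in CPM, and *HTA8* and *HTA9* overlapped.

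H2B, the partner of H2A in the nucleosome, has the most genes here, and 4 of the 11 were tested. *HTB2* and *HTB11* were higher in *cer7*, and *HTB4* and *HTB9* did not pass. *HTB2* (AT5G22880) had 8, 5 and 4 counts in the wild type, 32, 43 and 32 in *cer7-3*, and 25 and 15 in *cer7-4*. Its groups did not overlap (27.5 ± 12.0 against 90.7 ± 17.4 CPM), and the log2 fold change was 1.74 ± 0.38 (edgeR, adjusted p = 0.000637). Without wild-type replicate 3 the adjusted p was 0.0158. *HTB11* (AT3G46030) was the most even of the tested genes. It had 3 counts in each wild-type library, 21, 26 and 21 in *cer7-3*, and 15 and 16 in *cer7-4*, at 14.3 ± 1.05 against 62.5 ± 4.57 CPM. Its log2 fold change was 2.10 ± 0.45 (edgeR, adjusted p = 0.000506).

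*HTB4* (AT5G59910) had 6, 7 and 9 counts in the wild type, 24, 26 and 35 in *cer7-3*, and 30 and 19 in *cer7-4*. The CPM of the groups did not overlap, but the log2 fold change of 1.29 ± 0.41 fell just short of the threshold (edgeR, adjusted p = 0.0145). *HTB9* had a log2 fold change of 1.12 ± 0.50 with overlapping groups (edgeR, adjusted p = 0.0756). Among the H2B genes without a test, *HTB6* had 0 counts in the wild type, 4, 12 and 3 in *cer7-3*, and 5 and 1 in *cer7-4*, and *HTB10* had 0 in the wild type and 1 to 5 in *cer7*. A count of 0 allows up to 3 counts per library, and no fold is given. *HTB10* lies wholly within *HTA12* on the opposite strand (522 bp).

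The H3.1 genes were all tested, and 4 of the 5 were higher in *cer7*. *HTR1* (AT5G65360, chr5:26119859-26120581) had 4, 3 and 5 counts in the wild type, 42, 53 and 33 in *cer7-3*, and 23 and 19 in *cer7-4*. It stood at 18.9 ± 4.05 CPM in the wild type and 104 ± 23.1 CPM in *cer7*, without overlap. The log2 fold change was 2.44 ± 0.36 (edgeR, adjusted p = 3.23e-06).

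*HTR9* (AT5G10400) had the largest log2 fold change of the 19 genes. It had 0, 1 and 4 counts in the wild type, 19, 31 and 19 in *cer7-3*, and 19 and 37 in *cer7-4*. The log2 fold change was 3.31 ± 0.59 (edgeR, adjusted p = 5.99e-05), and it ran from 2.76 to 4.72 when 1 library was left out, so that its size rests on few wild-type reads. *HTR13* (AT5G10390) is the neighbour of *HTR9*, 578 bp apart. It had 1, 0 and 3 counts in the wild type, 22, 15 and 10 in *cer7-3*, and 19 and 10 in *cer7-4*, with a log2 fold change of 2.86 ± 0.64 (edgeR, adjusted p = 0.00077). It did not pass the filter in the fit on the *cer7* and wild-type libraries alone.

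*HTR2* (AT1G09200) had 2, 3 and 6 counts in the wild type, 22, 29 and 20 in *cer7-3*, and 22 and 26 in *cer7-4*. Its groups were apart (17.0 ± 8.43 against 78.2 ± 22.1 CPM) and the log2 fold change was 2.12 ± 0.42 (edgeR, adjusted p = 0.000228). *HTR3* (AT3G27360) was the H3.1 gene that did not pass. It had 4, 2 and 1 counts in the wild type, 8, 23 and 11 in *cer7-3*, and 11 and 14 in *cer7-4*, all *cer7* libraries being higher in CPM, with a log2 fold change of 1.89 ± 0.63 (edgeR, adjusted p = 0.0188). It overlaps *SDH2-1*, a gene of the same strand, over 328 bp.

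None of the 3 H3.3 genes was called in *cer7*. *HTR5* (AT4G40040), the H3.3 gene with the highest mean level, had 10, 11 and 15 counts in the wild type, 16, 17 and 20 in *cer7-3*, and 24 and 12 in *cer7-4*. Its levels overlapped (56.6 ± 8.28 against 58.3 ± 21.8 CPM), and the log2 fold change was 0.01 ± 0.34 (edgeR, adjusted p = 0.981). *HTR4* and *HTR8* had log2 fold changes of 1.16 ± 0.48 and 0.83 ± 0.47 (edgeR, adjusted p = 0.0583 and 0.166). Whether reads were counted over exons only is not given in the sources used here, so levels per kilobase of exon compare genes only roughly. On that scale, the highest means in *cer7* were 144 ± 36.1 CPM per kb for *H1.1* and 144 ± 32.0 for *HTR1*. The next genes were *HTB2* (107 ± 20.5), *HTR9* (107 ± 54.6) and *HTR2* (102 ± 28.9). All were measured in the same *cer7* libraries, and differences between genes within these libraries were not tested. A difference between H3.1 and H3.3 as classes was not tested.

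**Figure D2:**
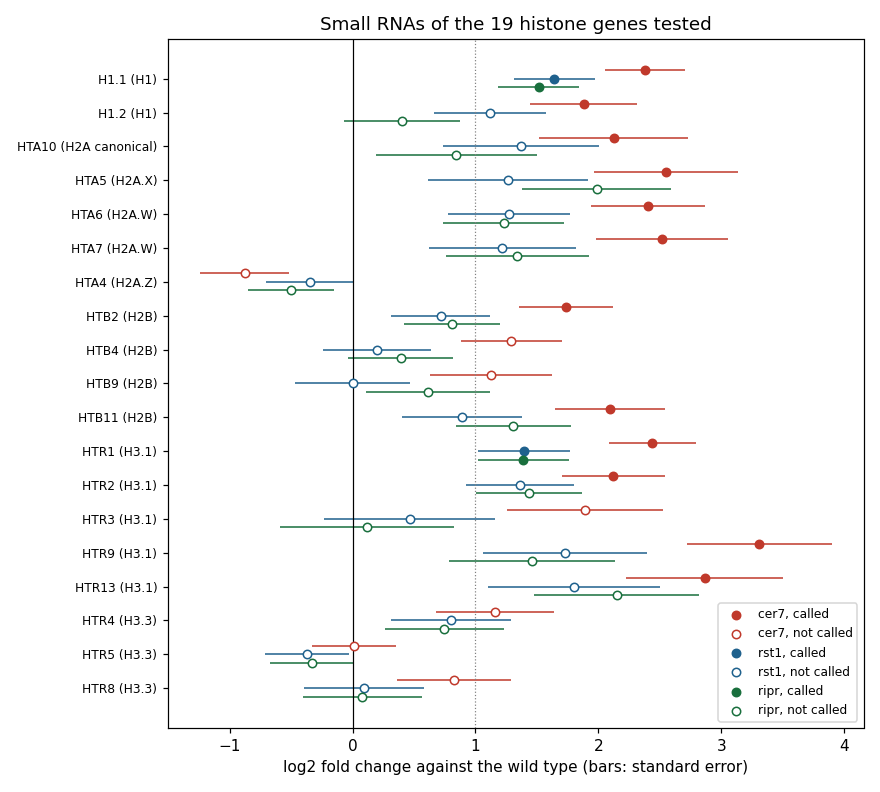
Log2 fold change against the wild type of the 19 histone genes tested, with standard errors, for *cer7*, *rst1* and *ripr*. Filled points were called. The 12 filled *cer7* points lie between 1.74 and 3.31, and *H1.1* and *HTR1* are the genes with filled *rst1* and *ripr* points. The 3 comparisons share the wild-type libraries.

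In *rst1* and *ripr* fewer genes passed. In *rst1* against the wild type, *H1.1* and *HTR1* were higher and 0 genes were lower, 2 of the 19 tested, where 9.91% of all genes tested were higher and 0.652% lower. In *ripr*, *H1.1* and *HTR1* were higher and 0 lower, where 9.88% of all genes were higher and 0.72% lower. Both shares are near the background. At an unadjusted p below 0.05, 9 of the 19 differed in *rst1*, against 33.2% of all genes, and 10 in *ripr*, against 32.3%. Without the filter 1 gene was called in each, where 0.835% and 0.996% of all genes were higher. DESeq2 also called 1 in each, where 7.41% and 7.51% were higher, and at an adjusted p below 0.05 edgeR called 3 and 6, where 15.7% and 14.6% were higher. These comparisons share the 3 wild-type libraries with each other and with *cer7*. *H1.1* had 14 to 36 counts in *rst1* (median 24.5) and 20 to 40 in *ripr* (median 24.5), against 5 to 8 in the wild type, and all 12 mutant libraries were above the wild type in CPM. Its log2 fold change was 1.64 ± 0.33 in *rst1* (edgeR, adjusted p = 0.000439) and 1.51 ± 0.33 in *ripr* (adjusted p = 0.000984).

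*HTR1* had 7 to 17 counts in *rst1* (median 12) and 8 to 21 in *ripr* (median 15), against 3 to 5 in the wild type, and again no library overlapped in CPM. Its log2 fold change was 1.39 ± 0.37 in both (edgeR, adjusted p = 0.00748 in *rst1* and 0.00649 in *ripr*). The calls of *rst1* and *ripr* were not stable. In *rst1*, *H1.1* was called in every setting run and *HTR1* was lost in some, for instance without any 1 wild-type library. In *ripr*, 0 genes were called without wild-type replicate 1, both were lost without wild-type replicate 3, where *HTA5* was called instead, and *HTR1* was lost in several other settings. The median log2 fold change of the 19 genes was 1.12 in *rst1* and 0.84 in *ripr*, against 0.09 and 0.07 over all genes tested. The other genes called in *cer7* ran, in *rst1*, from 0.72 (*HTB2*) to 1.80 (*HTR13*), and in *ripr* from 0.40 (*H1.2*) to 2.15 (*HTR13*), and did not pass the test. Of the 19 genes tested, every *cer7* library was above every wild-type library in CPM for 14, and the same held for 4 genes in *rst1* and 5 in *ripr*. Over the 2916 genes tested this held for 22.6%, 15.8% and 16.2%. In *cer7* it also held for 6 of the 16 genes without a test, and for 5.03% of the 22581 genes with a count that were not tested.

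The mutants were also compared with each other. In *cer7* against *rst1*, *HTR1* and *HTR9* were higher in *cer7* and 0 were lower, where 2.09% of all genes were higher and 0.24% lower. The log2 difference was 1.05 ± 0.23 for *HTR1* (edgeR, adjusted p = 0.00427) and 1.58 ± 0.36 for *HTR9* (adjusted p = 0.00521). Neither was called when scaled by library size alone, when fitted on the *cer7* and *rst1* libraries alone, or without *rst1-2* replicate 1, *rst1-2* replicate 3 or *rst1-3* replicate 3. *HTR9* stood between 51.8 and 157 CPM in *cer7*, between 5.60 and 40.1 in *rst1* and between 15.7 and 28.9 in *ripr*, so that *cer7* did not overlap with either. In *cer7* against *ripr*, *H1.2*, *HTR1* and *HTR9* were higher and 0 were lower, where 2.5% of all genes were higher and 0.377% lower. The log2 differences were 1.48 ± 0.31, 1.05 ± 0.23 and 1.85 ± 0.36 (edgeR, adjusted p = 0.00197, 0.00266 and 0.000762). The call of *HTR1* against *ripr* was lost with library size only and with no filter. It was also lost without *cer7-3* replicate 1, *cer7-3* replicate 2 or *ripr(insT)* replicate 3. The comparisons of *cer7* with *rst1* and with *ripr* share the *cer7* libraries. At an unadjusted p below 0.05, 15 of the 19 differed between *cer7* and *rst1* and 13 between *cer7* and *ripr*, against 19.1% and 22.9% of all genes. In *rst1* against *ripr*, 0 of the 19 genes were called by edgeR, 0 by DESeq2, and 1 had an unadjusted p below 0.05, where 0.377% of all genes were higher, 0.103% lower and 5.93% under that p.

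The 5 *cer7* libraries were then set beside each other, to see whether these genes vary together there. In these libraries the H4 genes varied widely. The summed level of the 8 H4 genes was 1035, 32585 and 2607 CPM in *cer7-3* replicates 1, 2 and 3, and 61792 and 52898 CPM in *cer7-4* replicates 1 and 3, a 59.7-fold range. The 35 genes did not spread like this. Their sum was 1394, 1647 and 1350 CPM in *cer7-3*, and 1670 and 1774 CPM in *cer7-4*, a 1.31-fold range. The 2 libraries with the least H4 small RNA, *cer7-3* replicates 1 and 3, were also the 2 with the lowest sums of the 35 genes. Their place did not depend on the scaling, and held with TMM, with the size factors of DESeq2, with library size only and with TMM without the H4 genes, the last of which was added after seeing the data. These scalings use the same counts and are not separate support. The same pair was lowest for 9.53% of all genes tested, so a match in 1 sum says little.

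The classes did not all follow this order. The class sums rest on few reads, such as 12 to 31 counts per *cer7* library for H2A.X, 13 to 46 for H2A.Z and 94 to 158 for H2B. Counting error was not measured for these sums, so the orders below are uncertain. H1 had 193, 279 and 224 CPM in *cer7-3* and 282 and 294 CPM in *cer7-4*. H2B had 325, 404 and 349 CPM, and 398 and 400 CPM. H3.1 had 325, 386 and 254 CPM, and 378 and 451 CPM. In these 3 classes *cer7-3* replicates 1 and 3 were the lowest, and the ranges were 1.52-fold, 1.24-fold and 1.78-fold. The other classes had other orders. Canonical H2A had 129, 115 and 92.7 CPM in *cer7-3*, and 165 and 153 CPM in *cer7-4*, and H3.3 had 155, 120 and 106 CPM, and 233 and 170 CPM, with *cer7-3* replicates 2 and 3 lowest in both. H2A.X had 77.6, 69.1 and 84.5 CPM in *cer7-3*, and 48.3 and 68.1 CPM in *cer7-4*. Its lowest library was *cer7-4* replicate 1, and the next 2 were nearly level and changed places with scaling to library size only. H2A.W had its lowest value in *cer7-4* replicate 1 and its highest in *cer7-4* replicate 3 (76.4 and 183 CPM). H2A.Z was highest in *cer7-3* replicate 2 and lowest in *cer7-4* replicate 3 (118 and 55.3 CPM).

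**Figure D3:**
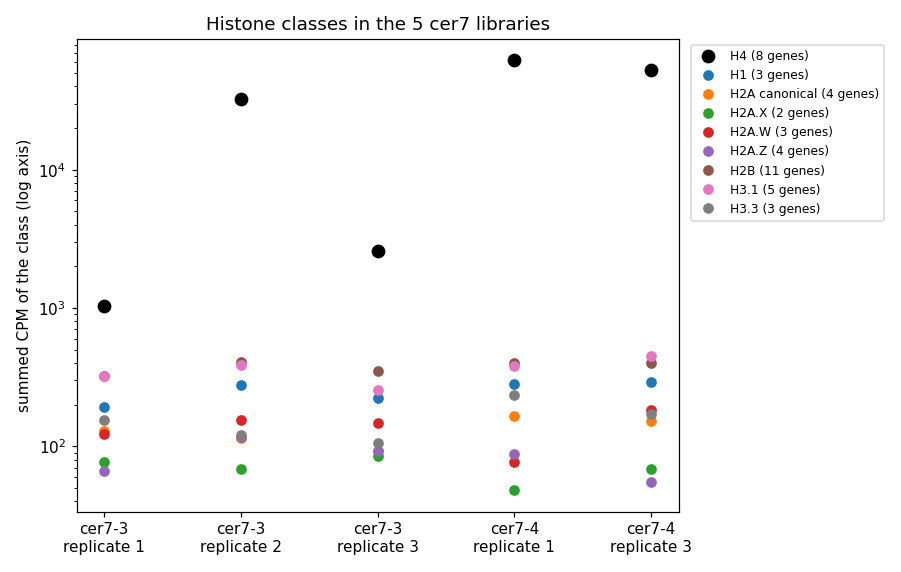
Summed small RNA level (CPM, log axis) of each histone class in the 5 *cer7* libraries, 1 point per class and library. The H4 points run from 1035 to 61792 CPM, while each of the other classes stays within a 2.39-fold range.

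Gene by gene the picture was the same. *cer7-3* replicates 1 and 3 were both below the other 3 libraries for 4 of the 19 genes tested (21.1%; *H1.1*, *HTR2*, *HTR3* and *HTR9*), for 9.53% of all genes tested and for 8 of the 8 H4 genes. *cer7-4* replicate 3 held the highest value of 9 of the 19 genes, *cer7-4* replicate 1 of 5, *cer7-3* replicate 2 of 3, replicate 1 of 2 and replicate 3 of 0. Over all genes tested *cer7-4* replicate 1 was the highest most often (32.6%) and *cer7-4* replicate 3 was the highest in 20.1%. *cer7-3* replicate 3 held the lowest value of 8 of the 19 and *cer7-4* replicate 1 of 5, against 17.6% and 25.7% of all genes tested. Genes could hold different places within 1 library: in *cer7-4* replicate 1, *H1.2*, *HTR13* and *HTR5* were at their highest and *HTA5*, *HTA6* and *HTA7* at their lowest. For *H1.2*, *HTA5* and *HTA6* the counts varied about as counting error alone would give, or less, so their order is uncertain.

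The spread among the *cer7* libraries was measured as the SD of log2(CPM + 1). Its median was 0.44 over the 19 genes, from 0.10 for *HTB11* to 0.93 for *HTA7*. It was 0.47 over all genes tested and 0.45 over the 1600 genes within the same range of mean level. For the H4 genes it was 2.96. An index of counting noise was added after seeing the data, the chi-square per degree of freedom of a gene's counts over the 5 libraries, which is near 1 for counting error alone. Its median was 1.81 over the 19 genes, from 0.11 for *HTB11* to 6.11 for *HTR9*, against 2.14 over all genes tested and 843 for the H4 genes. Among the genes named above for *cer7-4* replicate 1, the index was 0.63 for *H1.2* and near 1 for *HTA5* and *HTA6*. For *HTR5*, *HTR13* and *HTA7* it ran from 2.28 (*HTR5*) to 3.31 (*HTA7*). With 5 libraries no correlation is given.

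The alleles were compared directly. In *cer7-3* against *cer7-4*, 0 of the 19 genes were called by edgeR and 0 by DESeq2, and 2 had an unadjusted p below 0.05, *HTA4* and *HTR9*. Of all genes tested, 0.103% were higher, 0.24% lower and 15% had an unadjusted p below 0.05. *HTA4* was higher in *cer7-3* (log2 difference 1.08 ± 0.51, edgeR, adjusted p = 0.321) and *HTR9* was lower (-0.90 ± 0.43, adjusted p = 0.323). The median log2 difference of the 19 genes was -0.27, and that of the H4 genes was -2.19, of which 6 of 8 had an unadjusted p below 0.05 and 0 were called.

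**Figure D4:**
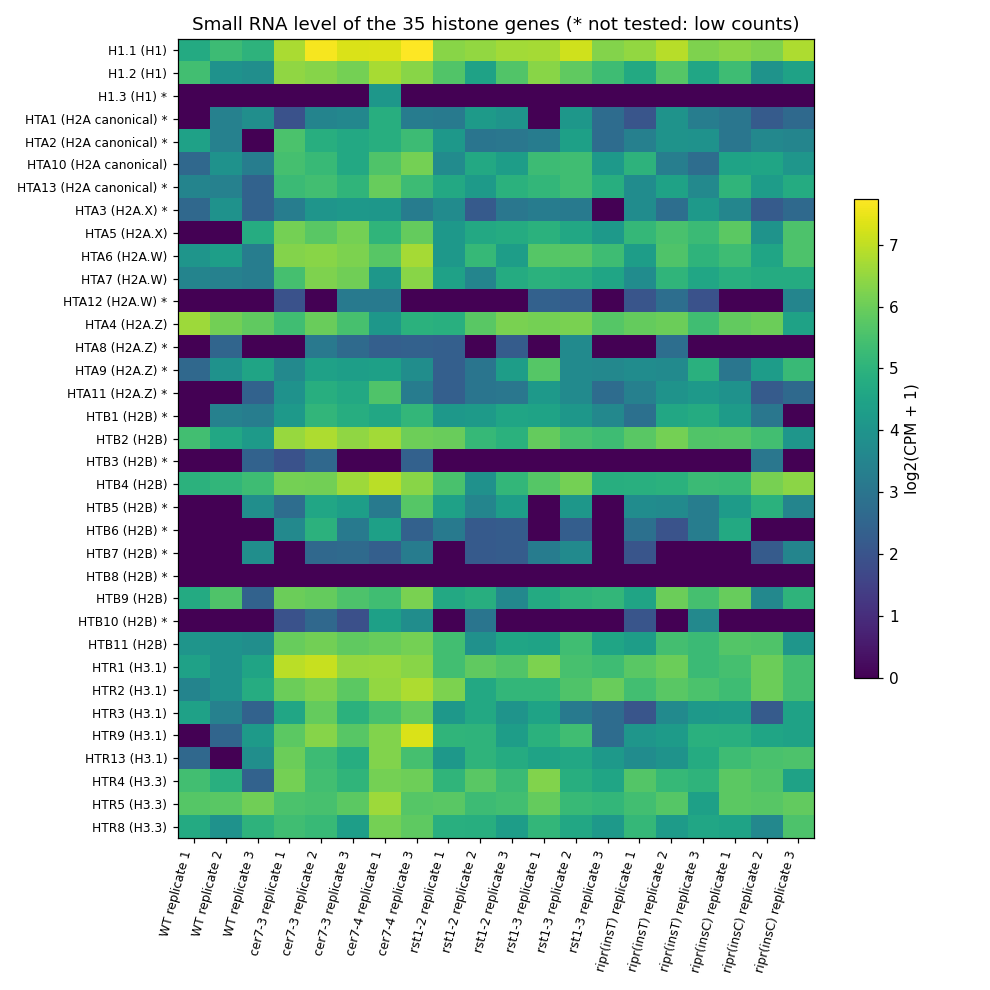
Small RNA level, as log2(CPM + 1), of the 35 histone genes (rows, by class) in the 20 libraries (columns). In the rows of the 12 genes called in *cer7*, the *cer7* columns are brighter than the wild-type columns, and *HTB8* is at 0 throughout. An asterisk marks the 16 genes that were not tested.

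The H4 genes stood apart from the other classes in *cer7*. There all 8 H4 genes were higher, with log2 fold changes from 6.15 to 10.49 and a median of 7.67, against a median of 2.10 and a highest value of 3.31 for the 19 genes. In *rst1* and *ripr* 0 of the 8 were called (edgeR), although 1 in each had an unadjusted p below 0.05. Their medians were 1.92 and 1.89, and their ranges (0.68 to 4.78 and 0.97 to 6.15) overlapped with those of the 19 genes (-0.37 to 1.80 and -0.50 to 2.15). The summed H4 level was 5.04 times the wild-type mean in *rst1* and 5.23 times in *ripr*, with every library above every wild-type library. The fit estimated the spread of a gene over all 4 groups, which takes in the wide H4 range in *cer7*. The 0 calls therefore do not show that H4 was unchanged in *rst1* and *ripr*. Other genes tied to histone supply or DNA replication gave little to test: of 24 genes for histone chaperones and for DNA replication in S phase, 1 passed the filter on low counts and it was not called in any comparison of a mutant with the wild type (unadjusted p above 0.05 in each). Among the untested genes of this list, every *cer7* library was above every wild-type library in CPM for *MSI1*, *PCNA1*, *PCNA2* and *RNR1*, and not for the others. This held for 5.03% of all genes with a count that were not tested. Of the 35 genes, 7 lie within 50000 bp of an H4 gene, 4 of them tested (*HTA6*, *HTB4*, *HTB9* and *HTB11*), and 2 of those 4 were higher in *cer7*.

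The 16 genes without a test had 0 to 146 counts over all 20 libraries. For 15 of the 16 the mean CPM was higher in *cer7* than in the wild type, and for 6 every *cer7* library was above every wild-type library (*HTA2*, *HTA13*, *HTA11*, *HTB1*, *HTB6* and *HTB10*). Over the 22581 genes of the table that had a count and were not tested, the same held for 61.5% and 5.03%. In 5 of them no wild-type library had a count. The 16 genes were not tested in the main fit. The fit without the filter tested all of them but *HTB8*, and 0 were called in *cer7*. *HTA13* was called higher in *cer7* without wild-type replicate 1 or without replicate 2. At this depth, a missing call does not show that a gene was unchanged.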

How the data were processed

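Small RNAs were measured in 20 libraries of *Arabidopsis* flower buds. The authors trimmed reads with cutadapt (1.18), aligned them without mismatch to TAIR10 with ShortStack in unique mode, and deposited raw counts of 21 and 22 nt reads per gene, without normalization or pooling (0 columns were left out). The counting tool, the use of strand and the handling of overlapping genes are not given in the sources used here. A table of 1 length class has totals of 192747 to 522464 counts, which are not the depth of the libraries, and these set the precision of low counts.

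Libraries were grouped by the labels, alleles of a gene together as in the study's methods. Per the methods, the replicates of a genotype were raised on separate dates and in separate chambers. The labels number them 1, 2 and 4 in each genotype (1 and 4 in *cer7-4*), here replicates 1, 2 and 3, but do not say whether equal numbers share a date or chamber. All 19 pairs of replicates differed beyond counting noise (chi-square of 3.79 to 11.8 per degree of freedom), and p-values measure the spread between these libraries. Counts were analysed with edgeR (4.0.16) in R (4.3.3): filterByExpr (minimum count 10, minimum total 15), TMM, glmQLFit (robust) on all 20 libraries in 4 groups (7 for the comparison of the *cer7* alleles) and glmQLFTest, with Benjamini-Hochberg adjustment over the 2916 genes. Standard errors were derived from the fold change and its F statistic. CPM values are relative to TMM-scaled totals, shares to the table's totals, with Clopper-Pearson intervals. The test was checked on simulated data, where it recovered 91.5% of the genes raised 4-fold in *cer7* and 64.5% of those lowered 4-fold. The methods of the study name DESeq2, which was used as an alternative (1.42.0). Other alternatives were other scalings, no filter, only the groups compared, a replicate block, an adjusted p below 0.05 and leaving out each library.

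The list of genes, its classes and the comparison lists (H4, histone chaperones, DNA replication genes) were chosen with earlier results of these data known. Counts in every wild-type and *cer7* library are given for genes called in any comparison, those with an adjusted p below 0.05 in *cer7* and the gene with the highest mean level of each class. All 35 identifiers were matched in the RefSeq annotation of TAIR10.1, from which sequences, positions and overlaps come, whereas the counts rest on TAIR10.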

Additional observations from a re-analysis of the deposited data

Results flagged for a closer look

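Among 78 sets of 5 or 6 libraries of 1 mutant (the levels of the 17 genes described in full, the class sums and the sum of all 35), 3 held a library that stood far from the others by Dixon's criterion. Chance flags about 1 in 20 such sets. *HTR9* was at 157 CPM in *cer7-4* replicate 3, where the next highest *cer7* library had 79.3 CPM. *HTR5* was at 96.6 CPM in *cer7-4* replicate 1, with 54.5 CPM in the next library. *H1.1* was at 144 CPM in *rst1-3* replicate 2, with 102 CPM in the next library. Without *cer7-4* replicate 3, *HTR9* was still called higher in *cer7* against the wild type. Over all fits that left out 1 library, its log2 fold change there ran from 2.76 to 4.72. Without *cer7-4* replicate 3, *HTR9* was no longer called in *cer7* against *rst1*, while it was still called against *ripr*.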

How the results depend on the processing

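The count of genes called in *cer7* against the wild type was 12 and stayed between 9 (only the groups compared) and 14 (adjusted p below 0.05) in every setting, and between 9 and 12 when 1 library was left out. With library size only it was 11 higher and 1 lower, while the calls over all genes went from 510 higher and 67 lower to 411 higher and 262 lower. The other counts were small and moved more. In *rst1* against the wild type 2 genes became 1 with no filter, DESeq2 or only the groups compared, and 1 to 2 when 1 library was left out. In *ripr* 2 became 1 in the same settings and 6 at an adjusted p below 0.05, and 0 to 2 without 1 library (0 without wild-type replicate 1). In *cer7* against *rst1*, 2 became 0 with library size only or only the groups compared, 1 with no filter and 8 at an adjusted p below 0.05, and 0 to 6 without 1 library (0 without *rst1-2* replicate 1 or 3 or *rst1-3* replicate 3, 6 without *cer7-4* replicate 1). In *cer7* against *ripr*, 3 became 2 with library size only or no filter. The count was 5 with DESeq2, 7 at an adjusted p below 0.05, and 2 to 5 without 1 library. Correlations of the deviations of same-numbered libraries from their group means ran from -0.061 to 0.083, all under the limit of 0.1 set for pairing, and 15 of 17 were positive, against 6 of 34 between other numbers. Deviations within a group sum to 0, so the pairs of other numbers are not an independent comparison. Whether the numbers mark a shared date is not given in the sources used here. A replicate block gave 12, 2 and 2 calls in *cer7*, *rst1* and *ripr* and 3 and 4 in *cer7* against *rst1* and *ripr*. The mean share of counts on the 35 genes was 0.0530% in the wild type when the total was taken over the genes tested, and 0.0576%, 0.145% and 0.0920% in the wild type, *cer7* and *ripr* when the most counted gene was left out. In each case the same counts were divided by a smaller total, so the shares rose by the calculation itself. For single genes in *cer7*, no setting turned a direction of a called gene. Wild-type counts of 0 to 8 per library among the called genes limit the size of their fold changes.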
